A study of Arabidopsis thaliana with 8 samples.

Results

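The MATE transporter gene cluster on chromosome 2 of Arabidopsis thaliana comprises 7 neighbouring genes, AT2G04040, AT2G04050, AT2G04066, AT2G04070, AT2G04080, AT2G04090 and AT2G04100, of 26547 genes with a read in any library. The members were chosen by their gene identifiers, as neighbouring genes annotated as MATE efflux family proteins, and the cluster was picked with earlier results of the same comparisons known. Their differences are therefore given as descriptions, with counting intervals and no p-value. RNA labelled as leaf material of 2-week-old plants was sequenced, with 1 library per group, in lsm8-1, a mutant in the Col-0 background, and in wild-type Col-0. The lsm8-1 groups were soil-grown plants after 24 h at 4 °C in light of 40 µmol m-2 s-1, soil-grown plants at 20 °C in light of 90 µmol m-2 s-1, plants moved for 10 h to plates with 150 mM NaCl, and plants on plates of 0.5X GM medium, and Col-0 had the same 4 groups. All plants were in long days, and both kinds of plate were kept in light of 90 µmol m-2 s-1, so the 4 °C groups differ from the 20 °C groups in light as well as in temperature. The labels do not say how many plants went into a library or whether the libraries were stranded. The summed level of the root markers given below was far higher in each plate library than in each soil library. Plate ratios therefore cannot be taken as ratios in leaf alone, whatever the label.

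MATE proteins (multidrug and toxic compound extrusion) are membrane transporters that export organic compounds, usually in exchange for protons or sodium ions moving the other way. The family is large in plants, where its members carry toxins, alkaloids, flavonoids, citrate and hormones out of the cell or into the vacuole. AT2G04040 is DTX1, known as an efflux carrier of plant alkaloids and other toxic compounds at the plasma membrane, and AT2G04050 is known as a gene of the mitochondrial dysfunction stimulon, the nuclear genes switched on when respiration is disturbed. LSM8, the gene affected in lsm8-1, encodes the LSM protein that is found in the nuclear LSM2-8 complex alone, which holds U6 RNA during pre-mRNA splicing.

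In RefSeq TAIR10.1 the 7 genes lie within 44861 bases, from 1334270 to 1379130 on chromosome 2, all on the minus strand. AT2G04040 spans 1334270 to 1336550 and AT2G04050 spans 1337180 to 1339468, at the low-coordinate end. AT2G04066 spans 1352887 to 1353517 and AT2G04070 spans 1353755 to 1355883, in the middle of the cluster. AT2G04080 spans 1357156 to 1359403, AT2G04090 spans 1362380 to 1364788, and AT2G04100 spans 1376694 to 1379130. Each is a gene with introns, with 6 exons in AT2G04040, AT2G04050, AT2G04070 and AT2G04080, 7 in AT2G04090 and AT2G04100, and 3 in AT2G04066. The annotated proteins have 476 residues in AT2G04040, AT2G04050, AT2G04070 and AT2G04080, 477 in AT2G04090 and 483 in AT2G04100. AT2G04066 is a short gene whose predicted protein has 171 residues.

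By protein identity the full-length members form a group of 4 and a pair. AT2G04050 and AT2G04070 shared 86.3% of 476 aligned residues, and the other pairs among AT2G04040, AT2G04050, AT2G04070 and AT2G04080 shared 81.7% to 84.9%. AT2G04090 and AT2G04100 shared 91.0% of 477 aligned residues, and each shared 67.8% to 72.0% with the group of 4. The short AT2G04066 was most like AT2G04080, with 85.9% identity over 163 residues. Such similarity bears on the counts, because the deposited tables hold uniquely placed reads. Of the 100-base stretches of exon sequence in the reference, 100% in AT2G04050 and AT2G04070, 99.2% in AT2G04040, 93.7% in AT2G04100 and 93.4% in AT2G04090 occurred at 1 place in the genome. The share was 80.3% in AT2G04080 and 4.81% in AT2G04066, and these 2 genes had 257 such stretches in common. Reads from stretches found at more than 1 place would be left out of such tables. The counts of AT2G04066 and AT2G04080 can therefore fall short of the RNA present. To a smaller extent this holds for AT2G04090 and AT2G04100, which had 77 stretches in common. The few or absent reads of AT2G04066 thus say little about its RNA level. Of 50-base stretches, 96.4% in AT2G04050, 96.8% in AT2G04070, 92.9% in AT2G04040, 86.3% in AT2G04100 and 85.8% in AT2G04090 occurred at 1 place. That share was 79.4% in AT2G04080 and 16.8% in AT2G04066. The read length is not given in the labels. In lsm8-1 at 20 °C the 2 reads of AT2G04090 covered 12.55% of its 1434 bases. If each counted read is 1 stretch of sequence, reads longer than 50 bases are among them.

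The sequence before the start of AT2G04050 and AT2G04070 is shown because these 2 members had the highest levels in lsm8-1 and share a pair of motif matches there; the stretches were picked after a search of 5 motifs had found them. Both are from RefSeq TAIR10.1, minus strand, read in the direction of the gene: chr2:1339592-1339703 ends 124 bases before the annotated start of AT2G04050, and chr2:1356446-1356556 ends 563 bases before that of AT2G04070. Capitals mark matches to the mitochondrial dysfunction motif, CTTG followed after 5 bases by CAAG or CACG on either strand.
AT2G04050: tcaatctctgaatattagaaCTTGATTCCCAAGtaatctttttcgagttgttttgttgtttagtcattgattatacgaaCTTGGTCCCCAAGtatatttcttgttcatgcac
AT2G04070: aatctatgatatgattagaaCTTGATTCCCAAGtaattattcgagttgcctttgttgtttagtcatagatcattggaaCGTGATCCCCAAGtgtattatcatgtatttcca
The matches lie 46 bases apart in AT2G04050 and 45 bases apart in AT2G04070, and the stretches were identical at 86.0% of 107 aligned bases. The upstream match reads CTTGATTCCCAAG in both genes, and the second reads CTTGGTCCCCAAG in AT2G04050 and CTTGGGGATCACG, on the other strand, in AT2G04070.

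In the 1000 bases before the annotated start, 2 of the 7 members had a match to either form of that motif, AT2G04050 and AT2G04070, against 4.39% of 27443 annotated genes; the form ending in CAAG alone occurred in 2.84% and the form ending in CACG in 1.65%. The other motifs searched in the same window, on both strands, were short and common. ACGTG, the core of the abscisic acid response element, occurred in 5 members and in 54.4% of all genes. TGACG, the core of the element bound by TGA factors, occurred in 5 members and in 54.1% of all genes, and CCGAC, the core of the dehydration and cold response element, in 4 members and in 37.4% of all genes. Matches of ACGTG can overlap those of the longer motif, as 1 did in AT2G04070. The windows of AT2G04040 and AT2G04066 also run into the next member. The TGACG and CCGAC matches of AT2G04066 lie within AT2G04070, and 1 TGACG match of AT2G04040 lies within AT2G04050. In the 250 bases before to 50 bases after the start, AT2G04050 alone among the members had a match to the longer motif, against 1.42% of all genes. A match is a description of the letters, and no match says only that they are not in that window.

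The libraries held 33.4 M to 45.9 M counted reads (M, 1000000 reads), and a member with no row in a table has no counted read there, for which 3 counts were taken as the upper limit (0.0671 to 0.0898 CPM, reads per M counted reads). CPM values are scaled by the trimmed mean of M values (TMM), ratios are ratios of these, and their 95% intervals are exact (Clopper-Pearson) and cover counting error only. Where 1 library of a pair had no read, the fold is set against that limit of 3 counts. Such a fold leaves out counting error in the other library and is not a 95% limit. Ratios are given within the soil experiment or within the plate experiment, which were deposited per gene and per transcript model. LSM8 itself had 206 reads in lsm8-1 against 578 in Col-0 at 20 °C, 821 against 1816 at 4 °C, 51 against 269 on GM and 29 against 208 with NaCl, a ratio of 0.152 to 0.439. The summed level of 8 root markers was 3889 CPM in lsm8-1 and 5980 CPM in Col-0 on GM, and 1795 CPM in lsm8-1 and 2295 CPM in Col-0 with NaCl, where BGLU23 alone had 1626 CPM in lsm8-1 and 2169 CPM in Col-0. In soil the summed level of the 8 root markers was 50.5 CPM in lsm8-1 and 51.6 CPM in Col-0 at 4 °C, and 96.0 CPM in lsm8-1 and 145 CPM in Col-0 at 20 °C. BGLU23 made up most of it, with 42.1 CPM in lsm8-1 and 42.9 CPM in Col-0 at 4 °C, and 92.3 and 144 CPM at 20 °C. In soil 2 of the 8 passed 5 CPM in Col-0 at 4 °C and 1 in each other library, and EXPA7 was at 0 in all 4. On plates 7 of the 8 passed 5 CPM in both GM libraries and in lsm8-1 with NaCl, and 5 in Col-0 with NaCl. No root marker was at 0 on plates. The plate libraries thus held RNA of root markers although they are labelled as leaf. Whether roots were in the plate material was not tested. All 5 leaf markers passed 5 CPM in every library, and their sum was 44300 CPM in lsm8-1 and 49270 CPM in Col-0 at 4 °C, 66550 CPM in lsm8-1 and 74340 CPM in Col-0 at 20 °C, 7079 CPM in lsm8-1 and 5373 CPM in Col-0 with NaCl, and 12370 CPM in lsm8-1 and 7692 CPM in Col-0 on GM. On GM the leaf sum was thus higher in lsm8-1, as were AT2G04040, AT2G04050, AT2G04070 and AT2G04100; its part in their ratios was not tested.

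AT2G04050 and AT2G04070 were higher in lsm8-1 than in Col-0 in all 4 conditions, and so was AT2G04040, by less on plates. AT2G04080 and AT2G04100 had ratios between 0.749 and 1.60, and AT2G04090 was lower in lsm8-1 on plates. In whole tissue, more RNA per cell and more cells that express a gene cannot be told apart.

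**Figure D1:**
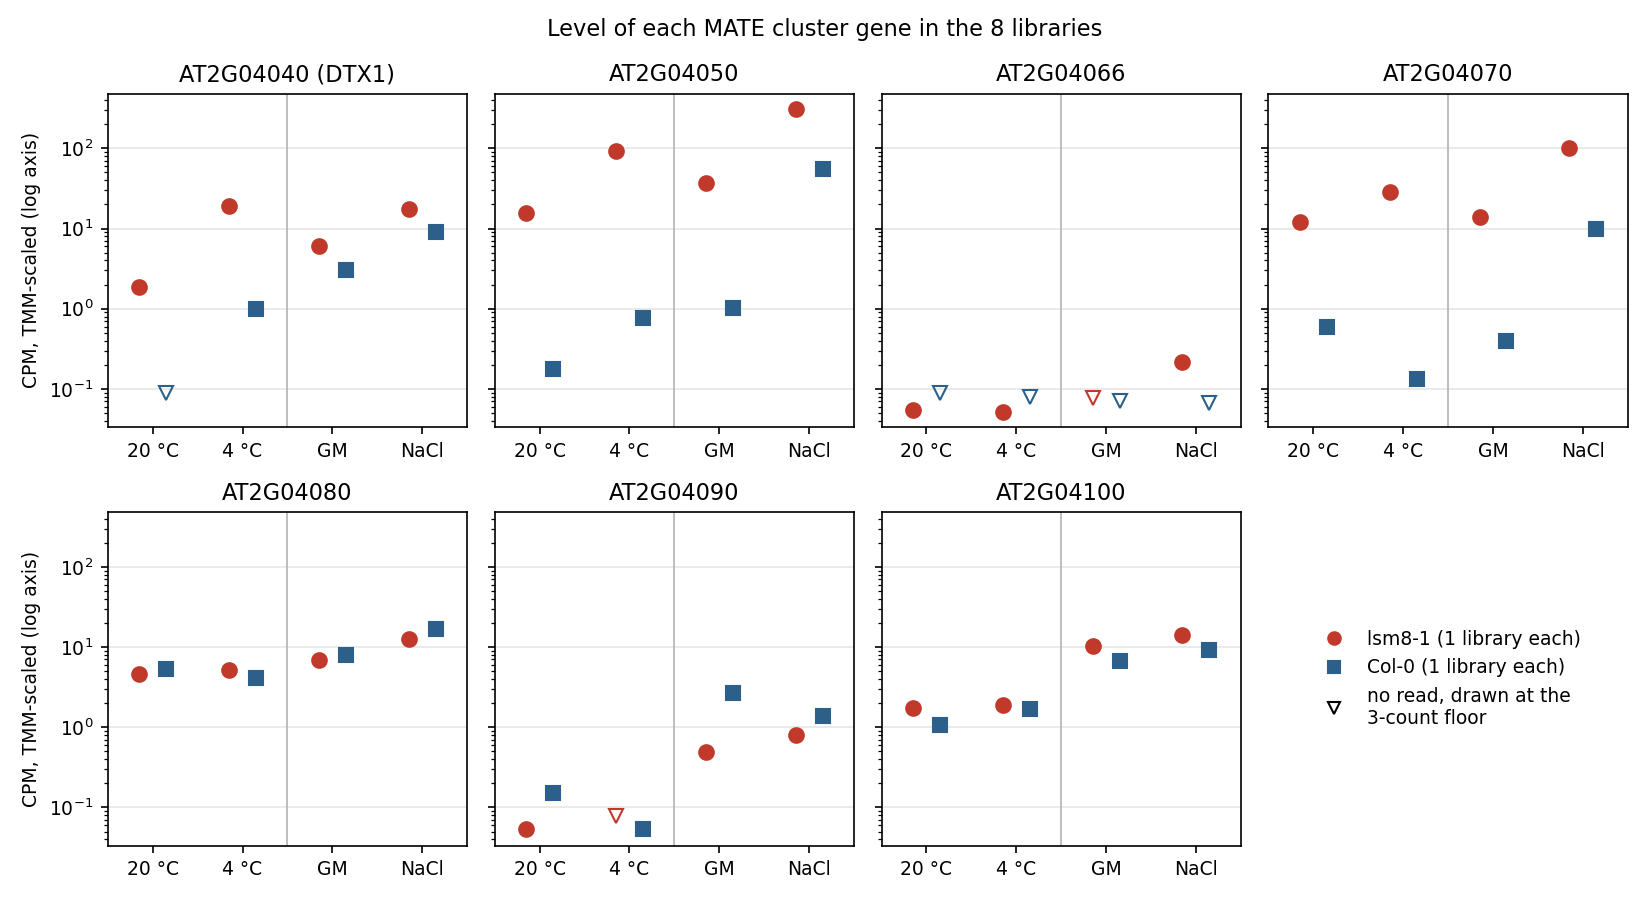
Level of each of the 7 genes in the 8 libraries, in TMM-scaled CPM on a log axis; red circles are lsm8-1, blue squares Col-0, and open triangles mark libraries with no read, drawn at the limit of 3 counts. Soil libraries (20 °C, 4 °C) stand left of the grey line and plate libraries (GM, NaCl) right of it. The red points of AT2G04050 run from 15.5 to 312 CPM and the blue ones from 0.180 to 55.9 CPM, while both genotypes of AT2G04080 lie between 4.12 and 17.0 CPM.

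AT2G04050 had the highest level of the cluster in every lsm8-1 library. It had 576 reads (15.5 CPM) in lsm8-1 and 6 reads (0.180 CPM) in Col-0 at 20 °C, and 3606 reads (93.0 CPM) in lsm8-1 and 29 reads (0.770 CPM) in Col-0 at 4 °C. It had 1426 reads (36.5 CPM) in lsm8-1 and 43 reads (1.01 CPM) in Col-0 on GM, and 12815 reads (312 CPM) in lsm8-1 and 2498 reads (55.9 CPM) in Col-0 with NaCl. In Col-0 the gene thus had from 6 to 43 reads in 3 conditions and was well above 5 CPM with NaCl, and lsm8-1 was higher in each pair. At 20 °C lsm8-1 was 86.5-fold above Col-0 (39.5 to 237), at 4 °C 121-fold (84.0 to 181), on GM 36.2-fold (26.7 to 50.2) and with NaCl 5.59-fold (5.36 to 5.84). The interval with NaCl lies below the other 3. The deposited coverage, the share of the feature's length with a read, was 95.8% in lsm8-1 and 14.4% in Col-0 at 20 °C, 99.8% in lsm8-1 and 77.1% in Col-0 at 4 °C, and 99.9% in lsm8-1 and 92.0% in Col-0 on GM. The reads in lsm8-1 were spread over nearly the whole gene, and so were the few in Col-0 on GM.

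AT2G04070, the closest relative of AT2G04050 in the cluster, had a like pattern at a lower level. It had 442 reads (11.9 CPM) in lsm8-1 and 20 reads (0.599 CPM) in Col-0 at 20 °C, and 1094 reads (28.2 CPM) in lsm8-1 and 5 reads (0.133 CPM) in Col-0 at 4 °C. On GM it had 549 reads (14.1 CPM) in lsm8-1 and 17 reads (0.399 CPM) in Col-0, and with NaCl 4126 reads (101 CPM) in lsm8-1 and 442 reads (9.89 CPM) in Col-0. As with AT2G04050, each lsm8-1 library was above its Col-0 counterpart. At 20 °C lsm8-1 was 19.9-fold above Col-0 (12.7 to 32.9), at 4 °C 213-fold (90.8 to 656), on GM 35.2-fold (21.8 to 60.9) and with NaCl 10.2-fold (9.22 to 11.3). The ratio at 4 °C rests on 5 reads in Col-0, hence the width of its interval. Coverage was 96.6% in lsm8-1 and 33.9% in Col-0 at 20 °C, 96.8% in lsm8-1 and 26.9% in Col-0 at 4 °C, and 96.6% in lsm8-1 and 61.9% in Col-0 on GM.

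AT2G04040 (DTX1) was higher in lsm8-1 in each pair, with the larger ratios in soil. It had 69 reads (1.86 CPM) in lsm8-1 and none in Col-0 at 20 °C, and 750 reads (19.4 CPM) in lsm8-1 and 37 reads (0.982 CPM) in Col-0 at 4 °C. On GM it had 239 reads (6.12 CPM) in lsm8-1 and 130 reads (3.05 CPM) in Col-0, and with NaCl 718 reads (17.5 CPM) in lsm8-1 and 406 reads (9.08 CPM) in Col-0. Its level in lsm8-1 at 20 °C was 20.7-fold the limit of 3 counts in Col-0, and at 4 °C it was 19.7-fold that of Col-0 (14.2 to 28.2). On plates the ratio was 2.01 (1.61 to 2.50) on GM, just past 2-fold, and 1.93 (1.71 to 2.18) with NaCl, just short of it. AT2G04039, a gene on the plus strand whose 3' end overlaps that of AT2G04040, had 5996 reads in lsm8-1 and 8726 in Col-0 at 20 °C, and 94 in lsm8-1 and 25 in Col-0 on GM. At 4 °C AT2G04039 had 4513 reads in lsm8-1 and 6639 in Col-0, and with NaCl 32 in lsm8-1 and 16 in Col-0. Without known strand, reads in the overlap could come from either gene. The part of such reads in the counts of AT2G04040 was not tested.

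AT2G04080 and AT2G04100 stayed below 2-fold between the genotypes. AT2G04080 had 172 reads (4.64 CPM) in lsm8-1 and 178 reads (5.33 CPM) in Col-0 at 20 °C, and 201 reads (5.19 CPM) in lsm8-1 and 155 reads (4.12 CPM) in Col-0 at 4 °C. On GM it had 268 reads (6.86 CPM) in lsm8-1 and 344 reads (8.07 CPM) in Col-0, and with NaCl 523 reads (12.8 CPM) in lsm8-1 and 761 reads (17.0 CPM) in Col-0. The ratios of AT2G04080 were 0.870 (0.702 to 1.08) at 20 °C, 1.26 (1.02 to 1.56) at 4 °C, 0.850 (0.722 to 1.00) on GM and 0.749 (0.669 to 0.839) with NaCl. The intervals at 4 °C and with NaCl are clear of 1, on opposite sides of it. AT2G04100 had 64 reads in lsm8-1 and 36 in Col-0 at 20 °C, 74 in lsm8-1 and 64 in Col-0 at 4 °C, 397 in lsm8-1 and 287 in Col-0 on GM, and 577 in lsm8-1 and 415 in Col-0 with NaCl. The level in lsm8-1 was 1.60 times (1.05 to 2.48) that in Col-0 at 20 °C, 1.12 times (0.793 to 1.60) at 4 °C, 1.51 times (1.29 to 1.76) on GM and 1.52 times (1.33 to 1.72) with NaCl. Each ratio was above 1 and below 2-fold, but the interval at 4 °C spans 1 and that at 20 °C passes 2. In soil AT2G04100 had 1.08 to 1.91 CPM, under 5 CPM.

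AT2G04090 had few reads and was lower in lsm8-1 on plates. It had 2 reads in lsm8-1 and 5 in Col-0 at 20 °C, and 0 in lsm8-1 and 2 in Col-0 at 4 °C, which are too few to order. On GM it had 19 reads (0.486 CPM) in lsm8-1 and 113 reads (2.65 CPM) in Col-0, a ratio of 0.183 (0.107 to 0.300). With NaCl it had 33 reads (0.805 CPM) in lsm8-1 and 61 reads (1.36 CPM) in Col-0, a ratio of 0.590 (0.374 to 0.915). The gene stayed under 5 CPM in all 8 libraries. Among the 8 root markers, 1 was counted as lower in lsm8-1 on GM and none as higher, and 2 as higher with NaCl and none as lower, with a median log2(CPM + 1) difference of -0.17 on GM and 0.37 with NaCl; their part in the result was not tested. AT2G04066 had 2 reads in lsm8-1 at 20 °C, 2 in lsm8-1 at 4 °C, 9 in lsm8-1 with NaCl and none in lsm8-1 on GM or in any Col-0 library. With NaCl its level in lsm8-1, from those 9 reads, was 3.27-fold the limit of 3 counts in Col-0. No fold between the genotypes can be given elsewhere.

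**Figure D2:**
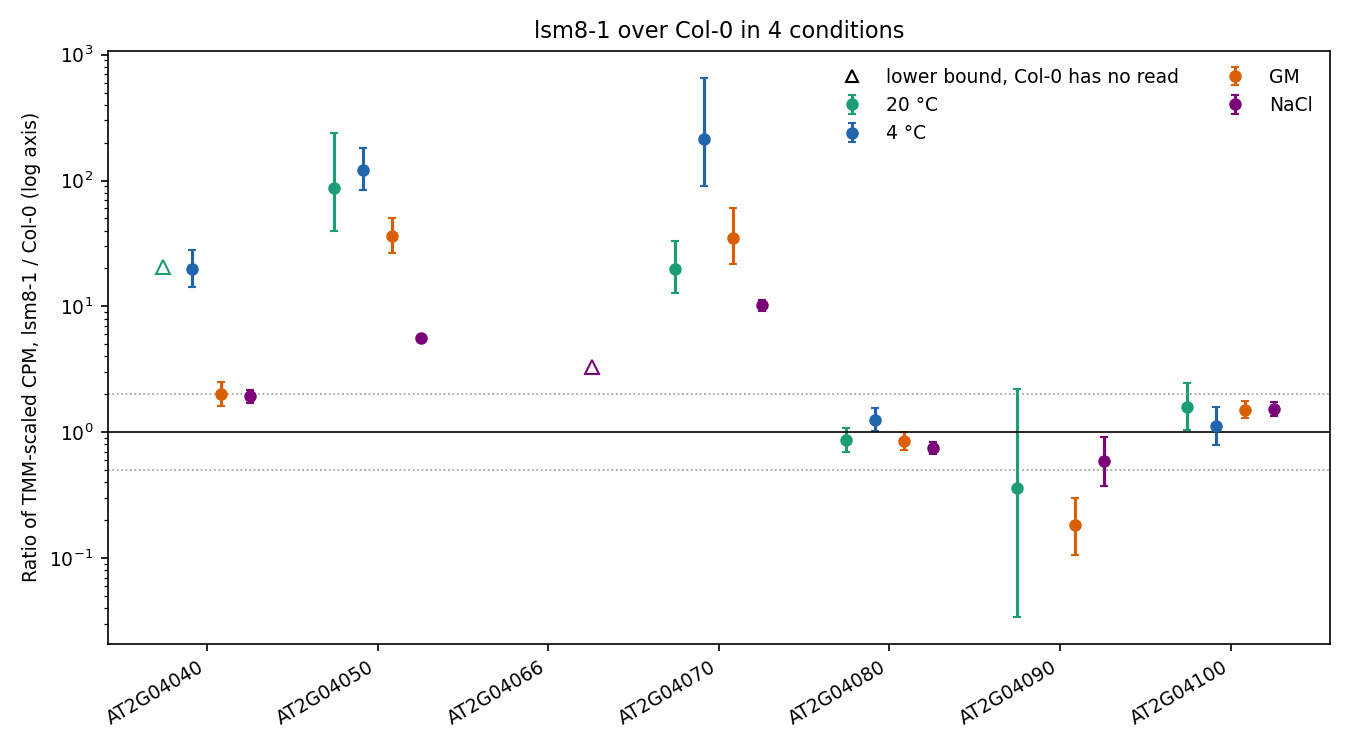
Ratio of TMM-scaled CPM in lsm8-1 to that in Col-0 for each gene in the 4 conditions, on a log axis; bars are exact 95% counting intervals, open triangles lower bounds where Col-0 had no read, and dotted lines 2-fold. AT2G04050 and AT2G04070 lie above 5-fold in all 4 conditions, and AT2G04080 and AT2G04100 lie between the dotted lines.

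Members were counted as higher or lower when the ratio passed 2-fold and at least 1 of the 2 libraries reached 5 CPM, which 3 members did at 20 °C, 4 at 4 °C and 5 in either plate condition. At 20 °C, AT2G04050 and AT2G04070 were counted as higher and no member as lower, where over all genes at that level 1.06% were higher and 0.618% lower. At 4 °C, AT2G04040, AT2G04050 and AT2G04070 were higher and none lower, against 2.02% higher and 0.913% lower over all genes. On GM the same 3 members were higher and none lower, against 1.81% higher and 2.23% lower over all genes; AT2G04040 lost its call there when libraries were scaled by their totals. With NaCl, AT2G04050 and AT2G04070 were higher and none lower, against 3.34% higher and 1.93% lower over all genes. Since the cluster was chosen with these contrasts known, the shares give a scale and no support. On the scale of log2(CPM + 1), the median difference between lsm8-1 and Col-0 over all 7 members was 0.39 for 20 °C, 0.27 for 4 °C, 0.53 for GM and 0.55 for NaCl, beside 0.04, 0.03, 0.00 and 0.00 over all genes at 5 CPM. On that scale AT2G04050 ranked 6th of 14234 genes at 20 °C, 1st of 14025 at 4 °C, 5th of 13244 on GM and 52nd of 13546 with NaCl, and AT2G04070 ranked 10th, 4th, 8th and 9th.

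In lsm8-1 the members higher in the cold were AT2G04040, AT2G04050 and AT2G04070. At 4 °C relative to 20 °C in lsm8-1, AT2G04040 was 10.4-fold higher (8.12 to 13.5), AT2G04050 5.99-fold (5.48 to 6.55) and AT2G04070 2.37-fold (2.12 to 2.65). AT2G04080, at 1.12 (0.908 to 1.38), and AT2G04100, at 1.11 (0.781 to 1.57), had intervals that span 1. In Col-0 the reads were few, but AT2G04040 had 37 reads at 4 °C and none at 20 °C. Its level at 4 °C was 10.9-fold the limit of 3 counts at 20 °C. AT2G04050 had 29 reads at 4 °C and 6 at 20 °C, a ratio of 4.29 (1.75 to 12.6). AT2G04070 went the other way in Col-0, with 5 reads at 4 °C and 20 at 20 °C, a ratio of 0.222 (0.0650 to 0.609). Those 5 reads covered 26.9% of the feature's length and the 20 reads 33.9%. AT2G04080 had a ratio of 0.773 (0.619 to 0.964) in Col-0 and AT2G04100 one of 1.58 (1.03 to 2.44). AT2G04090 and AT2G04066 had at most 5 reads in any soil library.

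In lsm8-1, 4 members reached 5 CPM in a soil library, and AT2G04040, AT2G04050 and AT2G04070 were counted as higher at 4 °C and none as lower, where 11.9% of all genes were higher and 11.5% lower. In Col-0, AT2G04080 alone reached 5 CPM, and no member was counted as higher or lower, where 12.7% of all genes were higher and 12.2% lower. The ratio of the lsm8-1 response to the Col-0 response was 1.40 (0.472 to 3.44) for AT2G04050, an interval that spans 1. It was 10.7 (3.85 to 36.6) for AT2G04070 and 1.45 (1.06 to 1.97) for AT2G04080. For AT2G04100 it was 0.701 (0.399 to 1.23). These intervals cover counting error, and none of the differences has a replicate check.

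Salt went with higher levels of AT2G04040, AT2G04050, AT2G04070 and AT2G04080 in both genotypes. With NaCl relative to GM in lsm8-1, the level of AT2G04050 was 8.56 times as high (8.11 to 9.05), that of AT2G04070 7.16 times (6.55 to 7.84), that of AT2G04040 2.86 times (2.47 to 3.33) and that of AT2G04080 1.86 times (1.60 to 2.16). In Col-0 the level of AT2G04050 was 55.4 times as high (41.0 to 76.7), that of AT2G04070 24.8 times (15.3 to 42.9), that of AT2G04040 2.98 times (2.44 to 3.66) and that of AT2G04080 2.11 times (1.86 to 2.40). The salt response of AT2G04050 and AT2G04070 was thus smaller as a ratio in lsm8-1, where both had the higher level on GM, and their level with NaCl was higher in lsm8-1. AT2G04100 was 1.39-fold higher (1.22 to 1.58) in lsm8-1 and 1.38-fold (1.18 to 1.61) in Col-0. AT2G04090 had a ratio of 1.66 (0.914 to 3.08) in lsm8-1 and 0.515 (0.371 to 0.709) in Col-0, so that the genotypes were closer with NaCl than on GM. AT2G04066 with NaCl in lsm8-1, from 9 reads, was 2.86-fold the limit of 3 counts on GM, and it had no read in Col-0.

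Of the 5 members at 5 CPM in a plate library of lsm8-1, AT2G04040, AT2G04050 and AT2G04070 were counted as higher with NaCl and none as lower, where 11.8% of all genes were higher and 8.37% lower. Of the 5 in Col-0, these 3 and AT2G04080 were counted as higher and none as lower, where 11.4% of all genes were higher and 9.47% lower. The ratio of the lsm8-1 response to the Col-0 response was 0.155 (0.111 to 0.210) for AT2G04050 and 0.289 (0.165 to 0.473) for AT2G04070. It was 0.961 (0.745 to 1.24) for AT2G04040, 0.882 (0.722 to 1.08) for AT2G04080 and 1.00 (0.820 to 1.23) for AT2G04100, intervals that span 1, and 3.22 (1.61 to 6.50) for AT2G04090. Of the 8 root markers, 3 were counted as lower and 1 as higher with NaCl than on GM in lsm8-1, and 6 as lower and none as higher in Col-0. Of the 5 leaf markers, 3 were counted as lower and 1 as higher in each genotype. The part of tissue make-up in these ratios was not tested. The median log2(CPM + 1) difference over all 7 members was 0.13 in lsm8-1 and 0.00 in Col-0 for cold, and 0.81 in lsm8-1 and 0.99 in Col-0 for salt, beside -0.04, -0.02, 0.00 and -0.01 over all genes at 5 CPM.

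**Figure D3:**
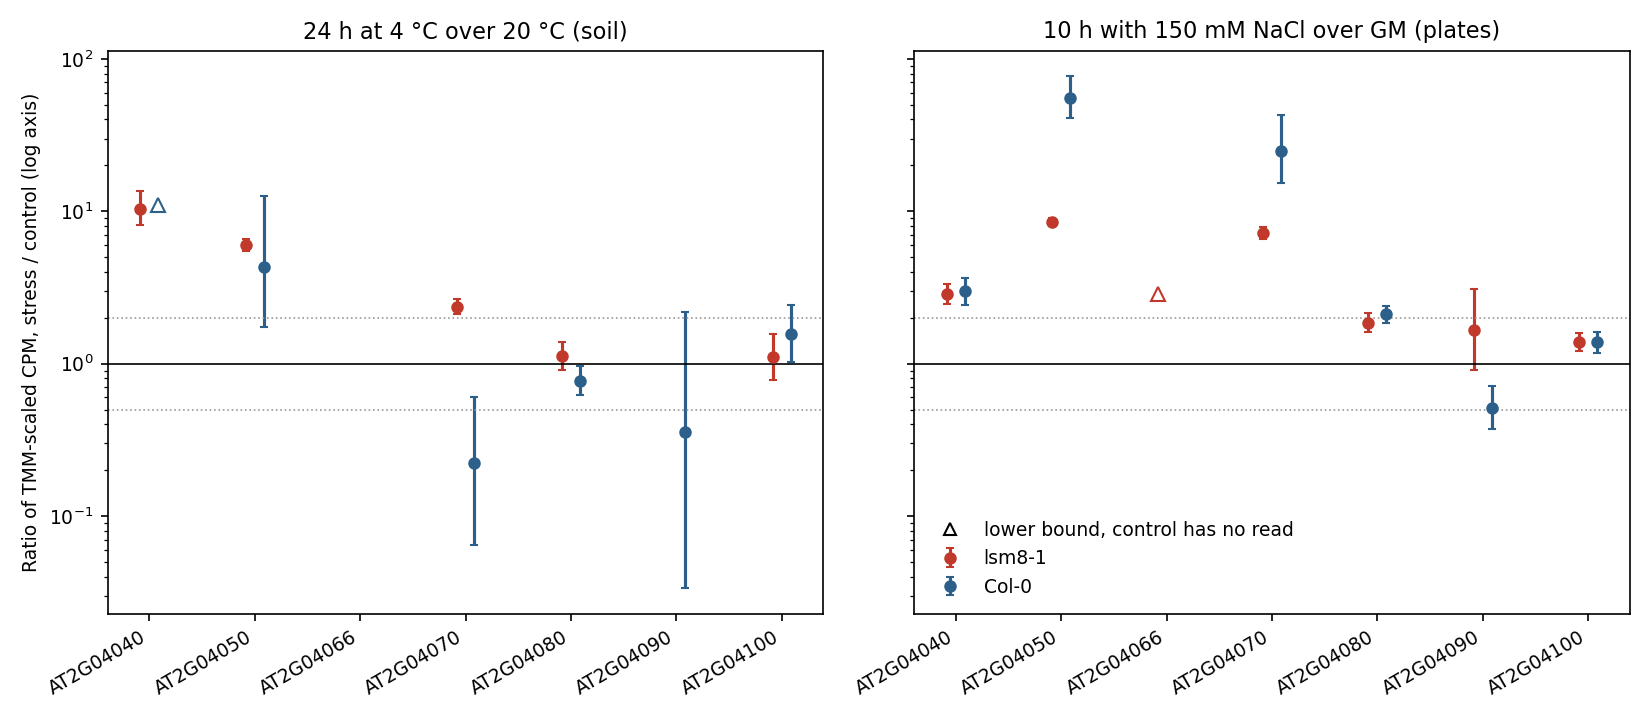
Ratio of TMM-scaled CPM in the stressed library to its control for each gene, in soil (left, 4 °C over 20 °C) and on plates (right, NaCl over GM), on log axes; red is lsm8-1, blue Col-0, bars are exact 95% counting intervals, and open triangles are lower bounds where the control had no read. AT2G04070 lies above 1 in lsm8-1 and below 1 in Col-0 in the cold, and AT2G04050 with NaCl lies at 8.56 in lsm8-1 and at 55.4 in Col-0.

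The make-up of the cluster's reads changed with genotype and condition. The 7 genes together had 1327 reads in lsm8-1 and 245 in Col-0 at 20 °C, 5727 in lsm8-1 and 292 in Col-0 at 4 °C, 2898 in lsm8-1 and 934 in Col-0 on GM, and 18801 in lsm8-1 and 4583 in Col-0 with NaCl. AT2G04050 took 43.4% of them in lsm8-1 and 2.45% in Col-0 at 20 °C, 63.0% in lsm8-1 and 9.93% in Col-0 at 4 °C, 49.2% in lsm8-1 and 4.60% in Col-0 on GM, and 68.2% in lsm8-1 and 54.5% in Col-0 with NaCl. AT2G04080 took 13.0% in lsm8-1 and 72.7% in Col-0 at 20 °C, 3.51% in lsm8-1 and 53.1% in Col-0 at 4 °C, 9.25% in lsm8-1 and 36.8% in Col-0 on GM, and 2.78% in lsm8-1 and 16.6% in Col-0 with NaCl. AT2G04080 was thus the leading member in Col-0 in 3 conditions, and AT2G04050 in Col-0 with NaCl and in all lsm8-1 libraries.

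Per length, in the deposited RPKM, the order within soil libraries was clear at the top and close at the bottom. In lsm8-1 at 4 °C, AT2G04050 had 54.9 RPKM, AT2G04070 14.7, AT2G04040 10.6, AT2G04080 2.63 and AT2G04100 0.971. In Col-0 at 4 °C, AT2G04080 had 2.03 RPKM, AT2G04100 0.840, AT2G04040 0.523, AT2G04050 0.442 and AT2G04070 0.0672. In lsm8-1 at 20 °C, AT2G04050 had 8.78 RPKM, AT2G04070 5.94, AT2G04080 2.26, AT2G04040 0.976 and AT2G04100 0.840. These orders come from 1 library each, and the spread of neighbours in them is not known. In Col-0 at 20 °C, AT2G04080 led with 2.42 RPKM and AT2G04100 followed with 0.491.

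**Figure D4:**
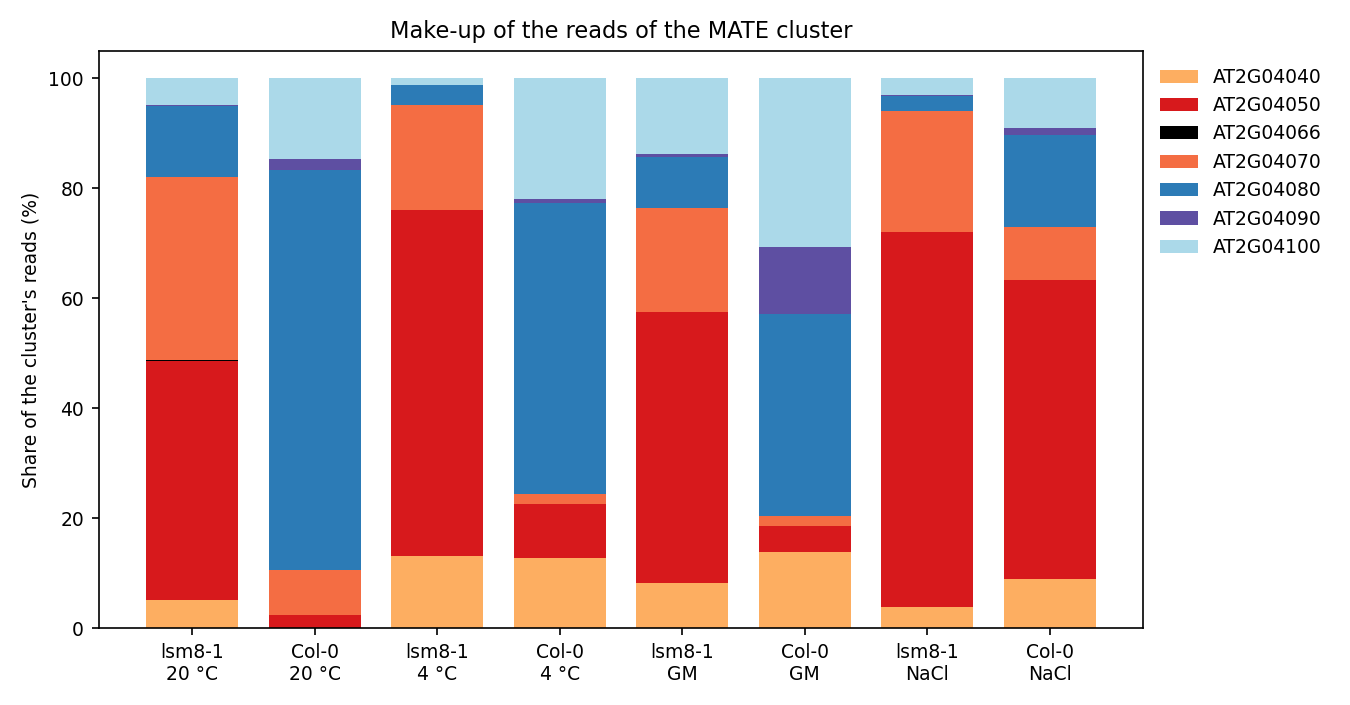
Share of the cluster's reads taken by each of the 7 genes in the 8 libraries, in percent, each bar being 1 library. Red and orange bands (AT2G04040, AT2G04050, AT2G04070) fill most of every lsm8-1 bar and of the Col-0 bar with NaCl, and blue and purple bands (AT2G04080, AT2G04090, AT2G04100) fill most of the other 3 Col-0 bars.

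Along the chromosome, the genes counted as higher in lsm8-1 were not all adjacent. AT2G04050 and AT2G04070 are separated by AT2G04066 and by 4 annotated genes that are not MATE genes, AT2G00370, AT2G04060, AT2G04062 and AT2G04063. Of these 4, AT2G04060, a glycosyl hydrolase family 35 gene, had 12 reads in lsm8-1 and 2 in Col-0 with NaCl and none in the other 6 libraries, and the others had none in any. AT2G04715, a long noncoding RNA between AT2G04090 and AT2G04100, had none either. Outside the cluster, bZIP48 (AT2G04038), a basic leucine zipper gene, had 27 reads in lsm8-1 and 10 in Col-0 with NaCl and at most 8 in any other library. AT2G04036 had 6 reads in lsm8-1 with NaCl and none elsewhere, and AT2G04039 is given above beside AT2G04040. On the other side, the pseudogene AT2G04110 had 410 reads in lsm8-1 and 587 in Col-0 on GM, 718 in lsm8-1 and 923 in Col-0 with NaCl, and none in soil. AT2G04115 had at most 8 reads in any library. AT2G04135 had 88 reads in lsm8-1 and 95 in Col-0 at 4 °C, and at most 18 elsewhere.

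**Figure D5:**
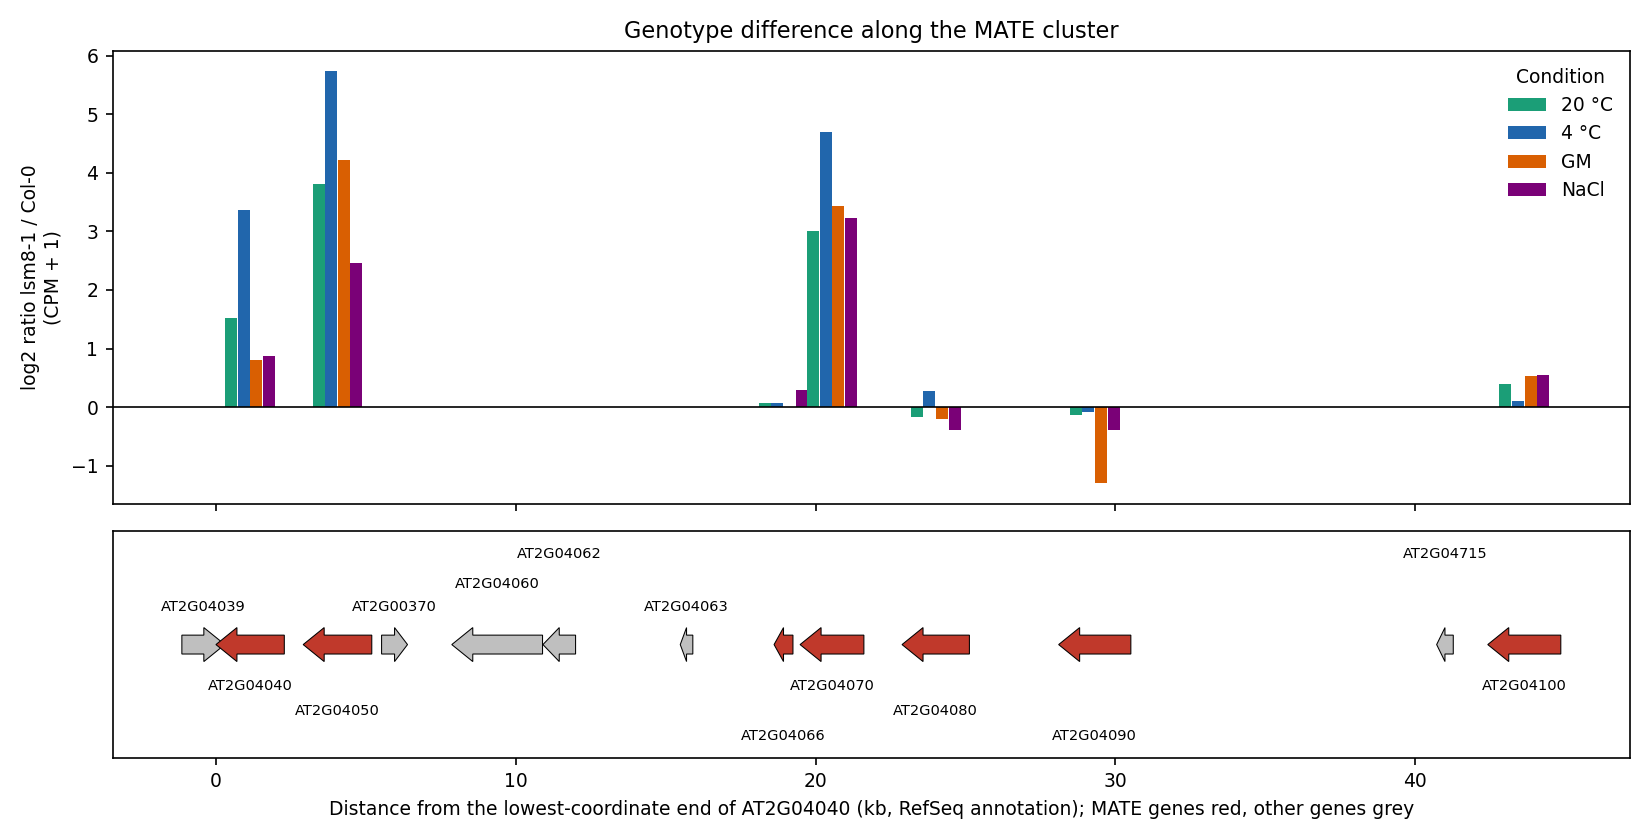
Genotype difference along the cluster: above, the log2 ratio of lsm8-1 to Col-0 (CPM + 1) in the 4 conditions, and below, the annotated genes to scale, with MATE genes red and other genes grey, arrows pointing in the direction of transcription and distance in kb from the low-coordinate end of AT2G04040. The tall bars stand over AT2G04040, AT2G04050 and AT2G04070, with AT2G04066 and 4 grey genes between the last 2.

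Among the members, AT2G04050 and AT2G04070 were the most alike over the 8 libraries, with a Pearson r of 0.973 between their log2(CPM + 1) values. The r was 0.910 for AT2G04040 and AT2G04050, 0.829 for AT2G04040 and AT2G04070 and 0.826 for AT2G04080 and AT2G04100, and 0.423 to 0.620 for the other 6 pairs of the 5 members that reached 5 CPM. The 8 points share 2 genotypes, 2 experiments and 4 pairs of libraries, so these values describe the libraries and have no p.

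Beyond the cluster, among 17245 genes at 5 CPM in any library, the genes most like AT2G04050 were AT2G41730 (r = 0.985), AT4G12735 (0.981) and NFXL1 (0.980), which encodes a zinc finger protein of the NF-X1 type. NFXL1 (0.972), AT4G12735 (0.972) and AT2G20720 (0.968) were most like AT2G04070. AT5G66480 (0.978), GSTU9 (0.976), a glutathione transferase of the tau class, and AT2G33585 (0.974) were most like AT2G04040. AT4G12735 had 22.3 CPM in lsm8-1 and no read in Col-0 at 20 °C, 51.6 CPM in lsm8-1 and 0.823 CPM in Col-0 at 4 °C, 18.1 CPM in lsm8-1 and 0.164 CPM in Col-0 on GM, and 106 CPM in lsm8-1 and 26.8 CPM in Col-0 with NaCl. In Col-0 it was thus under 1 CPM except with NaCl. AT2G04080 and AT2G04100, which stayed below 2-fold between the genotypes, had other companions. AT3G16990 (0.993), CIPK19 (0.991), a protein kinase that works with calcineurin B-like calcium sensors, and AT1G18100 (0.989) were most like AT2G04080. APY1 (0.995), an apyrase, GSTU25 (0.994), another tau glutathione transferase, and AT5G54390 (0.994) were most like AT2G04100. These r values are taken over the same 8 libraries. AT2G04080, AT2G04100 and the 6 genes most like them had higher CPM in each plate library than in each soil library, which also differ in how reads were counted.

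Of 13 other genes known from the mitochondrial dysfunction stimulon, a list drawn up with earlier results known that holds AT2G41730, named above, 7 to 11 were higher in lsm8-1, depending on the condition. By the 2-fold rule, 10 of the 11 that reached 5 CPM were higher at 20 °C and 11 of 12 at 4 °C in soil, and 7 of 10 on GM and 8 of 13 with NaCl on plates, and none was lower in any pair. Over all genes these shares were 1.06%, 2.02%, 1.81% and 3.34%. AOX1A, the alternative oxidase that accepts electrons from the ubiquinone pool of mitochondria, had 108 CPM in lsm8-1 and 10.2 CPM in Col-0 at 20 °C, 240 CPM in lsm8-1 and 50.9 CPM in Col-0 at 4 °C, 278 CPM in lsm8-1 and 33.5 CPM in Col-0 on GM, and 652 CPM in lsm8-1 and 206 CPM in Col-0 with NaCl. It was higher in lsm8-1 in each pair. In the cold 9 of 12 at 5 CPM were higher in lsm8-1 and 6 of 8 in Col-0, where 11.9% and 12.7% of all genes were. With NaCl 10 of 13 were higher in lsm8-1 and 9 of 10 in Col-0, where 11.8% and 11.4% of all genes were, and none was lower in either stress. A match to the mitochondrial dysfunction motif in the 1000 bases before the start was found in 3 of these 13 genes, UPOX, HSP23.5 and CRF6, in 2 of the 13 genes named above as most like a member, AT4G12735 and AT2G20720, and in 2 of 48 other MATE genes. These shares were 23.1%, 15.4% and 4.17%, beside 4.39% of 27443 annotated genes, and were not tested. AOX1A and AT2G41730 were among the genes without a match.

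The rest of the MATE family was set beside the cluster by the same rule. Of 48 MATE genes annotated elsewhere in the genome, 19 reached 5 CPM in a library at 20 °C and 21 at 4 °C, and none of them was counted as higher or lower in lsm8-1, where 1.06% and 2.02% of all genes were higher. On GM 22 reached 5 CPM, with none higher and 1 lower, where 1.81% of all genes were higher and 2.23% lower. With NaCl 26 did, with 2 higher and 1 lower, where 3.34% of all genes were higher and 1.93% lower. The gene lower in both was AT5G38030, which had 3.69 CPM in lsm8-1 and 21.5 CPM in Col-0 on GM (ratio 0.172) and 8.29 CPM in lsm8-1 and 25.8 CPM in Col-0 with NaCl (ratio 0.322). In soil AT5G38030 had at most 0.359 CPM in any library. The 2 genes higher with NaCl were AT1G66780, with 6.68 CPM in lsm8-1 and 0.58 CPM in Col-0, and ADS1, with 45.4 CPM in lsm8-1 and 20.2 CPM in Col-0. AT1G73700 stayed under 5 CPM in every library and so was not counted, but was higher in lsm8-1 in each pair. It had 0.863 CPM in lsm8-1 and 0.180 CPM in Col-0 at 20 °C, and 2.915 and 1.274 CPM at 4 °C. On GM it had 2.047 and 0.375 CPM, and with NaCl 2.755 and 0.649 CPM. At 4 °C, 6 of 22 at 5 CPM were higher and 3 lower in lsm8-1, where 11.9% of all genes were higher and 11.5% lower, and 3 of 21 were higher and 2 lower in Col-0, where 12.7% were higher and 12.2% lower. With NaCl, 9 of 27 were higher and none lower in lsm8-1, where 11.8% of all genes were higher and 8.37% lower, and 9 of 26 were higher and 3 lower in Col-0, where 11.4% were higher and 9.47% lower. The median log2(CPM + 1) difference between lsm8-1 and Col-0 over these 48 genes was -0.05 with NaCl and 0.00 in the other conditions.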

How the data were processed

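The deposited tables give, per the file headers, the number of uniquely placed reads of each feature (raw count), reads per length and library total (RPKM), the feature's length and the percent of it covered. In the 2 NaCl tables the deposited coverage passes 100 for a few features, so it was taken there as a score and is not reported. Per the submitters' processing notes the build was TAIR10; aligner and counter: not given in the sources used here. As the counts sum to the header totals, a gene not listed was taken as 0.

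The cold tables are per gene. Counts of transcript models were summed per locus in the salt tables, where each member has 1 model. Counts were scaled by TMM (edgeR 4.0.16, R 4.3.3) over 20228 genes that reached 1 CPM in 2 or more of the 8 libraries, with factors of 0.756 to 0.845 in soil and 1.16 to 1.32 on plates. With 1 library per group no gene was tested. Intervals treat reads as independent; PCR copies are not. The log2 differences use a pseudocount of 1. Alternatives were scaling by library totals, by DESeq2 1.42.0 size factors or within each experiment, other minimums and folds, 1 model per locus, and a pseudocount of 0.5.

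The members, gene lists and motifs were chosen with earlier results of these data known. Named were all members, their annotated neighbours, the 3 genes with the highest r to each member, and other MATE genes past 2-fold in at least 2 of 4 genotype pairs. The MATE genes AT1G66780, ADS1 and AT1G73700 were named outside that rule. Of 50 listed MATE identifiers, 48 were annotated as such. Annotation and sequence are from RefSeq TAIR10.1; the deposited tables hold no coordinates, and their feature lengths equal a RefSeq transcript or coding length for 34.3% of 26289 loci, so gene models can differ.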

Additional observations from a re-analysis of the deposited data

Results flagged for a closer look

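AT2G04070 had opposite cold ratios in the genotypes, each with a counting interval clear of 1: at 4 °C relative to 20 °C it was 2.37 in lsm8-1, from 1094 and 442 reads, and 0.222 in Col-0, from 5 and 20 reads. The 20 reads in Col-0 covered 33.9% of the feature's length and the 5 reads 26.9%. Whether PCR copies are among these reads was not tested. The difference was not tested either, since each group has 1 library.

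AT2G04080 had opposite genotype ratios in different conditions, each with a counting interval clear of 1: lsm8-1 relative to Col-0 was 1.26 at 4 °C and 0.749 with NaCl. The difference was not tested, and these libraries come from soil and from plates.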

How the results depend on the processing

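The counts of members past 2-fold kept within 1.5 times under scaling by library totals, by DESeq2 size factors or by TMM within each experiment (the last added after seeing the data), and under a minimum of 1 CPM. Within that range, on GM, AT2G04040 lost its call under library totals (2 higher in place of 3), and a minimum of 1 CPM added 1 lower member, AT2G04090. At 20 °C a minimum of 1 CPM added AT2G04040 (3 higher in place of 2). Taking 1 model per locus could change nothing, since each member has 1 model. With no minimum, 4 members were counted in place of 2 at 20 °C (3 higher and 1 lower in lsm8-1), and 4 in place of 0 for cold in Col-0 (2 higher and 2 lower). At 1.5-fold, 4 were higher in lsm8-1 with NaCl in place of 2. At 4-fold, 2 were higher with NaCl in Col-0 in place of 4. Fewer or more genes pass by construction. Of 56 single log2 differences, all 56 kept their sign with DESeq2 size factors and with a pseudocount of 0.5, and 55 did with library totals and with TMM within each experiment. The largest shifts were 0.04, 0.82, 0.26 and 0.29 in that order. The exception in both was AT2G04066 for cold in lsm8-1, with 2 reads in either library, whose -0.003 became 0 on rounding and did not turn positive. Differences of 0, where neither library had a read, were counted as kept. Low counts limit AT2G04066 and AT2G04090, and the soil values of Col-0. Within a condition no paired analysis was possible, because each group has 1 library and no replicates to pair or leave out. A fit of genotype over the 8 libraries with condition as a term was possible and was not run, as the members were chosen with that contrast known.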
